A study of Mus musculus with 8 samples.

Results

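Protein arginine methyltransferases and the F-box protein Skp2 were described in mouse embryonic fibroblasts (MEFs) starved of glucose. The genes were chosen by name and function and not by a cut on their measured values, although earlier results of these data were known. They are 9 of the 49492 gene names in the deposited table: Prmt1, Prmt2, Prmt3, Carm1, Prmt6, Prmt5, Prmt7, Jmjd6 and Skp2. All 9 passed the filter on low values and were tested among 16232 genes. RNA-seq was performed on 8 samples in 4 groups of 2: Pontin WT and Pontin RA MEFs, each in normal medium and under glucose starvation. Pontin is an ATPase of chromatin remodelling complexes encoded by Ruvbl1, and RA is a mutant in which 2 arginines that become methylated were replaced by alanine. All groups derive from immortalised MEFs whose Pontin gene is flanked by loxP sites, into which Flag-tagged WT or RA Pontin was introduced by lentivirus with drug selection. The study describes removing the endogenous gene with Cre virus in these lines. The duration of starvation is not given in the labels. The columns of the table carry only a minus or a plus for the medium, read here as without and with starvation after the study's own scheme. Under the opposite reading every starvation difference and interaction would change sign, and the comparisons of RA with WT would trade media. Each genotype is a single stably expressing line, so a difference between lines and a difference between Pontin forms cannot be told apart. The labels do not say whether the replicates came from separate cultures, so p-values measure the spread between these samples only, which may be technical.

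Arginine methyltransferases transfer methyl groups from S-adenosylmethionine to the guanidino nitrogens of arginine. Type I enzymes (Prmt1, Prmt2, Prmt3, Carm1 and Prmt6) make asymmetric dimethylarginine, the type II enzyme Prmt5 makes symmetric dimethylarginine, and the type III enzyme Prmt7 makes monomethylarginine. Carm1 is a transcriptional coactivator that methylates histone H3 and is reported to methylate Pontin at the 2 arginines replaced in RA. The study cites a report that Prmt5 methylates Pontin at another arginine. Skp2 is the substrate receptor of an SCF ubiquitin ligase, best known for the degradation of the cell cycle inhibitor p27, and it also targets Carm1 protein. Only RNA was measured here, so protein abundance, stability and enzyme activity were outside the measurement.

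Values are CPM, read counts relative to a library size that the authors scaled. The values corresponded to 43205841 to 56363034 reads per sample, and 3 reads correspond to a value of 0.0548 to 0.069. Differences are on the scale of log2(value + 1), which slightly understates changes of low genes. They were tested with limma over all genes, and a gene was called at a Benjamini-Hochberg (BH) adjusted p under 0.05. Ruvbl1 stood at a mean of 28.0 in WT and 34.4 in RA in normal medium, and at 28.2 and 44.0 under starvation. Since added and endogenous copies give the same gene count, this does not test the genotype labels. Of 10 fibroblast markers only Lum was under 1 in all 8 samples. The epithelial list summed to at most 3.21, with Krt14 and Krt5 at 0. Of 6 immune markers 3 were under 1 in all samples, and the list summed to 21.0 to 26.1. Its detected genes moved apart under starvation: Csf1r had means of 10.8 and 19.7 in normal and starved WT and 14.0 and 18.6 in RA. Cd14 had 7.62 and 1.08 in WT and 7.45 and 2.67 in RA, and Cd68 had 2.29 and 4.32 in WT and 2.30 and 2.20 in RA.

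The genes that moved most under starvation were Prmt3, which rose, and Skp2 and Prmt1, which fell. The 250 bases before their RefSeq start sites are shown as the annotated promoters of the genes that moved most. Which start sites were in use in these cells was not measured. Capitals mark CACGTG, the E-box recognised by basic helix-loop-helix leucine zipper factors, and CCAAT, the box recognised by NF-Y (ATTGG on the other strand). The coordinates are in GRCm38.p6 and each sequence is written 5′ to 3′ on the strand of its gene. RefSeq has 2 start sites for Skp2.
Prmt1, chr7:44986421-44986670, minus strand: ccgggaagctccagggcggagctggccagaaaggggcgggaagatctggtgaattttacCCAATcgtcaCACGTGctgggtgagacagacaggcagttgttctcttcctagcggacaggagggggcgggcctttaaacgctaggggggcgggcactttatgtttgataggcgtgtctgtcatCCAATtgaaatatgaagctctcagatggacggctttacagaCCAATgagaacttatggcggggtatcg
Prmt3, chr7:49778108-49778357, plus strand: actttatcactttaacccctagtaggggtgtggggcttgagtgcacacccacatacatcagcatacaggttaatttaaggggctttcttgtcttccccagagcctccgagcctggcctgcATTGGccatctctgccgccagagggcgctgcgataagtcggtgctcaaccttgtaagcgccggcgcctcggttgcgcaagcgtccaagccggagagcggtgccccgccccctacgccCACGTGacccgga
Skp2 start site 1, chr15:9155426-9155675, minus strand: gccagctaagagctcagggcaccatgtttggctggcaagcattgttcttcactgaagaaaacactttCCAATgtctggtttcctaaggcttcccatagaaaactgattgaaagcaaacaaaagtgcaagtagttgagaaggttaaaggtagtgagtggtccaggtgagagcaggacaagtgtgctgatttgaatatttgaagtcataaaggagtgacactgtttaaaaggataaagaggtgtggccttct
Skp2 start site 2, chr15:9140455-9140704, minus strand: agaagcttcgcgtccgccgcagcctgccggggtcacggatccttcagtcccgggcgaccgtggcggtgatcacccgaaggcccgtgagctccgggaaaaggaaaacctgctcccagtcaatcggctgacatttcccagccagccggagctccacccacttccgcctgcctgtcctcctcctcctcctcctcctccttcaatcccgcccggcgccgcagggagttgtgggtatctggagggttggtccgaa
The search covered windows from 250 bases before to 50 after the start on both strands. An E-box lay in the window of Prmt1, beginning 181 bases before the start, and in that of Prmt3, 13 bases before it, and in none of the other 7 windows of these genes. It is present in 7.2% of 32851 promoter windows of this length. CCAAT was found 3 times in the window of Prmt1, once in that of Prmt3 and once in the first window of Skp2, and 37.4% of all windows hold it. TGTTTAC, the letters bound by FOXO factors, were in no window of these genes and are in 3.6% of all windows. No match was found either to TGATGNAA, recognised by Atf4 and its partners (4.0% of all windows), or to the E2F letters TTTCCCGC, TTTCGCGC, TTTGCCGC and TTTGGCGC (2.3%). CCAAT was also found 4 times in the window of Prmt5, 3 times in that of Jmjd6 and once in that of Prmt2, and no E-box overlapped a CCAAT box. Windows were matched for 8 of the 9 genes, with none for Carm1. These matches describe letters only and say nothing on whether a factor was bound.

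The first question was how each gene responds to glucose starvation. In WT, starvation moved 7 of the 9 genes, 2 up and 5 down, against 78.6% of all genes tested (39.3% higher and 39.2% lower). In RA it moved all 9, 3 up and 6 down, against 68.7% of all genes (35% higher and 33.7% lower). The shares of the 9 genes are thus to be read against a background in which most genes were called. The median log2 difference of the 9 genes was -0.18 in WT and -0.27 in RA, against 0.01 for all genes tested in either genotype. The plot of the values by sample shows all 9 genes.

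**Figure D1:**
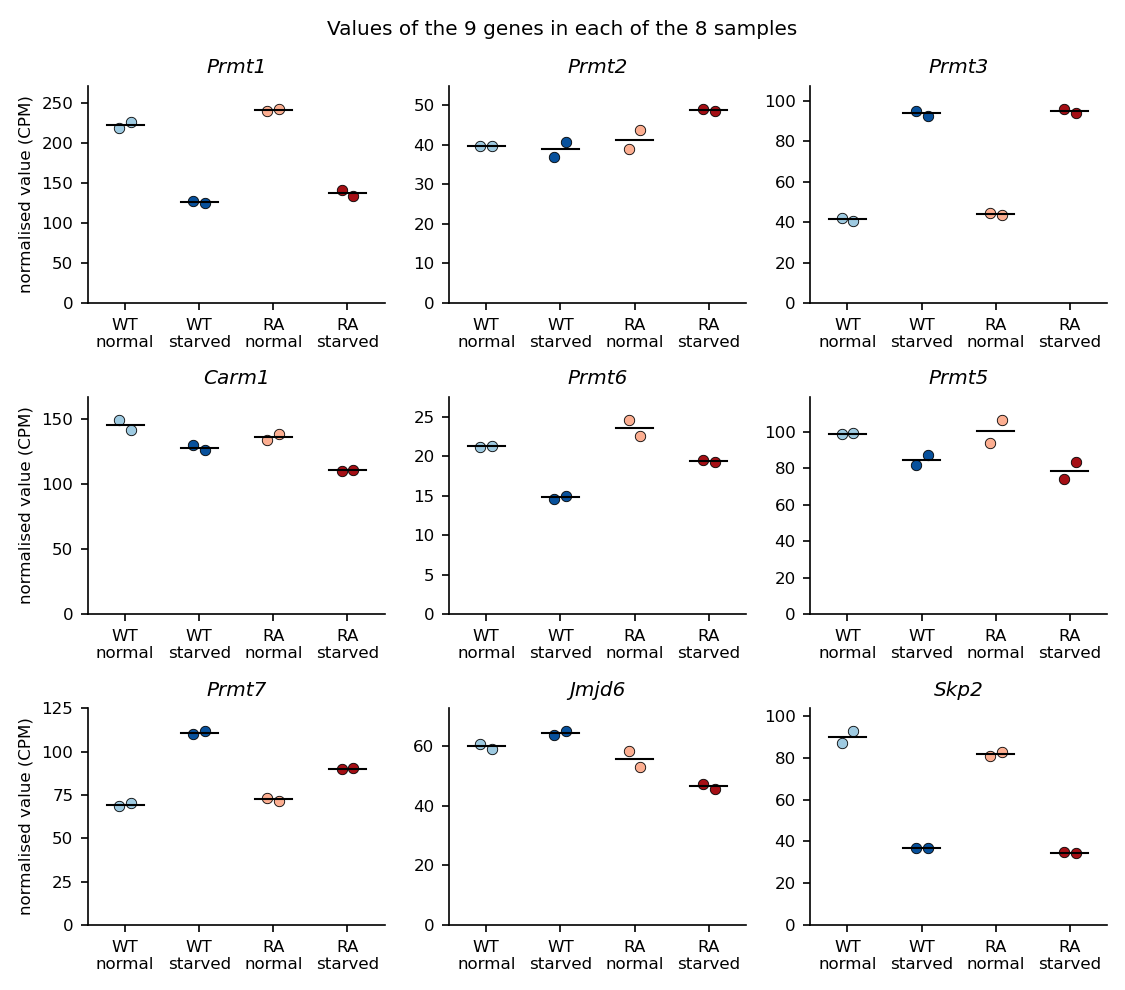
Normalised value (CPM, linear axis from 0) of each of the 9 genes in the 8 samples, with a point for each sample and a line at the mean of each group of 2. Skp2 and Prmt1 are lower and Prmt3 and Prmt7 higher in every starved sample than in every sample in normal medium.

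Prmt1, the main source of asymmetric dimethylarginine in most cells, lost over 40% of its value in both genotypes. Its WT values were 219 and 226 in normal medium and 128 and 125 under starvation. Its RA values were 240.2 and 242 in normal medium and 141 and 134 under starvation. The media did not overlap in either genotype, and the mean fell by 43.4% in WT, while in RA it fell by 43.1%. The log2 difference was -0.82 in WT (SE 0.039, limma BH-adjusted p = 3.91e-12) and -0.81 in RA (SE 0.039, limma BH-adjusted p = 9.77e-12).

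Prmt3, a cytosolic enzyme that methylates the ribosomal protein Rps2, moved in the opposite direction. Its values were 41.9 and 40.7 in WT in normal medium and 95.03 and 92.3 in starved WT. In RA they were 44.4 and 43.5 in normal medium and 95.7 and 94.0 under starvation. All 4 starved samples thus exceeded all 4 others, by 2.27-fold in WT and 2.16-fold in RA on the means. The log2 difference was 1.16 in WT (SE 0.044, limma BH-adjusted p = 1.54e-13) and 1.09 in RA (limma BH-adjusted p = 9.13e-13). Gm26856, which shares 144 exon bases with Prmt3 on the opposite strand, was at 5.85 to 7.52 in normal medium and 12.9 to 14.1 under starvation, and how reads over shared bases were assigned is not stated.

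Carm1, reported to methylate the 2 arginines of Pontin replaced in RA, had slightly lower RNA under starvation. Values in WT were 149 and 142 in normal medium and 130.1 and 126 under starvation. Values in RA were 134 and 138 in normal medium and 110.2 and 111 under starvation. The starved samples were below the others in each genotype, with a mean that fell by 11.8% in WT, while in RA it fell by 18.7%. The log2 difference of Carm1 was -0.18 in WT (SE 0.041, limma BH-adjusted p = 6.62e-04) and -0.30 in RA (limma BH-adjusted p = 5.82e-06). Carm1 shares 1025 exon bases, 21.1% of its exon length, with Yipf2 on the opposite strand. Yipf2 was at 48.1 to 48.7 in normal WT, 51.1 to 51.2 in starved WT, 49.0 to 51.8 in normal RA and 45.5 to 46.9 in starved RA, and its part in the Carm1 values was not tested.

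Prmt6, a nuclear enzyme that methylates histone H3 at arginine 2, was low and fell. Its values were 21.2 and 21.3 in WT in normal medium and 14.6 and 15 in starved WT. In RA they were 24.6 and 22.6 in normal medium and 19.6 and 19.3 under starvation. The log2 difference was -0.50 in WT (SE 0.069, limma BH-adjusted p = 4.95e-06) and -0.27 in RA (limma BH-adjusted p = 0.00252), with no overlap of the media. C130013H08Rik shares 984 exon bases with Prmt6 on the opposite strand, 23.4% of its exon length, and also stood lower under starvation, at 6.87 to 8.38 against 9.63 to 10.6 in normal medium. Its part in the Prmt6 values was not tested.

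Prmt2, a weakly active enzyme known as a nuclear receptor coactivator, was the type I gene not called in WT. The WT samples gave 39.7 and 39.7 in normal medium and 37.0 and 40.6 under starvation, and these ranges overlap. The RA samples gave 38.9 and 43.6 in normal medium and 48.9 and 48.5 under starvation. The log2 difference was -0.03 in WT (95% interval -0.16 to 0.09, limma BH-adjusted p = 0.616), while in RA Prmt2 rose by 0.24 (SE 0.060, limma BH-adjusted p = 0.00228).

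Prmt5, which works in a complex with Wdr77 in splicing and histone methylation, fell in both genotypes. Its values were 98.7 and 99.2 in WT in normal medium and 82.0 and 87.6 in starved WT. In RA the replicates lay further apart, at 94.2 and 106 in normal medium and 73.9 and 83.6 under starvation. The media still did not overlap, and the log2 difference was -0.22 in WT (SE 0.061, limma BH-adjusted p = 0.00319) and -0.35 in RA (limma BH-adjusted p = 8.26e-05).

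Prmt7 rose in both genotypes. Values of 68.6 and 70.2 in WT in normal medium became 109.9 and 112 under starvation, and values of 73.1 and 71.7 in RA became 89.9 and 90.4. Every starved sample was above every sample in normal medium, with a log2 difference of 0.67 in WT (SE 0.040, limma BH-adjusted p = 9.44e-11) and 0.31 in RA (limma BH-adjusted p = 2.93e-06). Gm26786, antisense to Prmt7 over 21 exon bases, was at 64.7 to 67.0 in normal WT, 75.1 to 79.7 in starved WT, 64.8 to 65.7 in normal RA and 72.0 to 72.2 in starved RA. Smpd3 shares 247 exon bases with Prmt7 and was at most 4.19.

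Jmjd6 is an oxygenase that hydroxylates lysines and was proposed to remove methyl groups from arginine. The WT samples had 60.6 and 59.1 in normal medium and 63.6 and 64.95 under starvation. The RA samples had 58.3 and 53.1 in normal medium and 47.4 and 45.7 under starvation. The log2 difference was 0.10 in WT (95% interval -0.01 to 0.21, limma BH-adjusted p = 0.0784), which did not pass the test although the WT groups did not overlap. It passed without RA normal replicate 1 (0.0457) or 2 (0.0449), samples that enter this contrast only through the shared spread. In RA Jmjd6 fell by 0.25 (SE 0.051, limma BH-adjusted p = 3.22e-04). Mettl23, which shares 172 exon bases with it on the opposite strand, was at 301 in both WT samples in normal medium and at 199 to 201 in starved WT, and at 292 to 302 and 170.3 to 175 in RA.

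Skp2 had the largest difference by size of the 9 genes in either genotype. Its values were 87.0 and 92.8 in WT in normal medium and 37.1 in both starved WT samples. In RA they were 80.9 and 82.9 in normal medium and 34.8 and 34.7 under starvation. The media were far apart in both lines, and the starved means were 0.413 (WT) and 0.424 (RA) of those in normal medium. The log2 difference was -1.25 in WT (95% interval -1.35 to -1.15, limma BH-adjusted p = 1.37e-13) and -1.22 in RA (95% interval -1.32 to -1.12, limma BH-adjusted p = 5.48e-13). No annotated gene overlaps its exons, nor those of Prmt1 and Prmt5.

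Genes of proliferating cells moved beside Skp2. The summed value of 18 proliferation genes was 2960 to 3000 in WT in normal medium and 1213 to 1226 in starved WT, and 2889 to 2939 and 1083 to 1094 in RA. Of these genes 15 fell and 1 rose in WT, and all 18 fell in RA, with median log2 differences of -2.12 and -1.55. Of all genes tested 39.2% fell and 39.3% rose in WT, and 33.7% fell and 35% rose in RA, with medians of 0.005 and 0.013. Plk1, a mitotic kinase, went from 90.9 to 3.34 (WT) and from 86.7 to 8.01 (RA). Mcm2, a subunit of the replicative helicase, was the gene of the list that rose in WT, by 0.09. The sum of the 10 fibroblast markers also moved, from 10900 to 11000 in normal WT to 5563 to 5649 in starved WT, and from 10830 to 11170 in normal RA to 7326 to 7340 in starved RA. Of the 9 tested markers 8 fell and 0 rose in WT, and 6 fell and 1, Fn1, rose in RA. In bulk samples fewer cells of a type and less RNA per cell cannot be told apart, and the part of either list in the values of the 9 genes was not tested. The endothelial list, at 2.44 to 3.75 in normal medium, stood at 23.0 to 24.1 in starved WT and 9.19 to 10.04 in starved RA. Vwf and Kdr rose in both genotypes and Tek in WT, without a call for Tek in RA. The endothelial markers Pecam1 and Cdh5 were under 1 in all samples.

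The second question was how the genes compare with each other within a group of bulk samples. Values were divided by the kilobases of exon in the GRCm38 annotation, since a longer transcript yields more reads. All annotated exons of a gene were merged for this length. The isoforms in use were not measured, so the order of the genes depends on these lengths. The SDs and overlaps below show only the spread between samples. Per kb Prmt1 ranked first of the 9 genes in all groups, followed by Carm1 and Prmt5, with no overlap between neighbours among these top genes. In WT in normal medium the levels per kb were 65.03 ± 1.4 for Prmt1, 30.0 ± 1.1 for Carm1 and 25 ± 0.10 for Prmt5 (SD, n = 2). Jmjd6 followed at 12.7 ± 0.22, and then Prmt2 at 11.7 ± 0.010, Skp2 at 11.4 ± 0.52 and Prmt7 at 11.3 ± 0.18, of which Prmt2 and Skp2, and Skp2 and Prmt7, did not differ beyond their spread. Prmt3 at 6.89 ± 0.15 and Prmt6 at 5.06 ± 0.025 closed the order.

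In starved WT the levels per kb were 36.8 ± 0.68 for Prmt1, 26.4 ± 0.58 for Carm1, 21.4 ± 0.99 for Prmt5, 18.1 ± 0.21 for Prmt7 and 15.6 ± 0.32 for Prmt3. Jmjd6 stood at 13.7 ± 0.20, Prmt2 at 11.5 ± 0.76, Skp2 at 4.71 ± 0.00015 and Prmt6 at 3.52 ± 0.070, and no neighbours overlapped. Prmt3 had thus moved from the eighth place to the fifth and Skp2 from the sixth to the eighth. In RA in normal medium Prmt1 stood at 70.4 ± 0.41, Carm1 at 28.0 ± 0.68 and Prmt5 at 25.3 ± 2.2. Prmt2 at 12.2 ± 0.97, Jmjd6 at 11.9 ± 0.79 and Prmt7 at 11.8 ± 0.17 overlapped in that order, followed by Skp2 at 10.4 ± 0.17, Prmt3 at 7.33 ± 0.11 and Prmt6 at 5.62 ± 0.33. In starved RA the order was Prmt1 at 40.1 ± 1.5, Carm1 at 22.8 ± 0.11, Prmt5 at 19.9 ± 1.7, Prmt3 at 15.8 ± 0.20, Prmt7 at 14.7 ± 0.062, Prmt2 at 14.4 ± 0.084 and Jmjd6 at 9.91 ± 0.25. Prmt6 at 4.63 ± 0.051 and Skp2 at 4.41 ± 0.0089 came last, and no neighbours overlapped there.

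The 7 methyltransferase genes were also summed per kb. The sum was 154.6 to 155.4 in WT in normal medium and 133.0 to 133.7 in starved WT, and 158.2 to 163.4 and 132.3 to 132.4 in RA. The make-up of the sum moved more than its size. Prmt1 made up 41.4% to 42.5% of it in normal WT and 27.2% to 28.0% in starved WT, and 43.3% to 44.3% and 29.5% to 31.1% in RA. Prmt3 went from 4.37% to 4.52% to 11.5% to 11.9% in WT, and from 4.44% to 4.68% to 11.8% to 12.1% in RA. Carm1 kept a share of 18.8% to 20.2% over the WT samples and 17.2% to 17.5% over the RA samples, and Prmt5 one of 14.1% to 16.6% over all samples. Prmt7 rose from at most 7.37% to at least 13.5% in WT and from at most 7.54% to 11.1% in RA. These shares are of RNA per merged exon length, which may differ from that of the transcripts in use, and not of protein or activity.

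**Figure D2:**
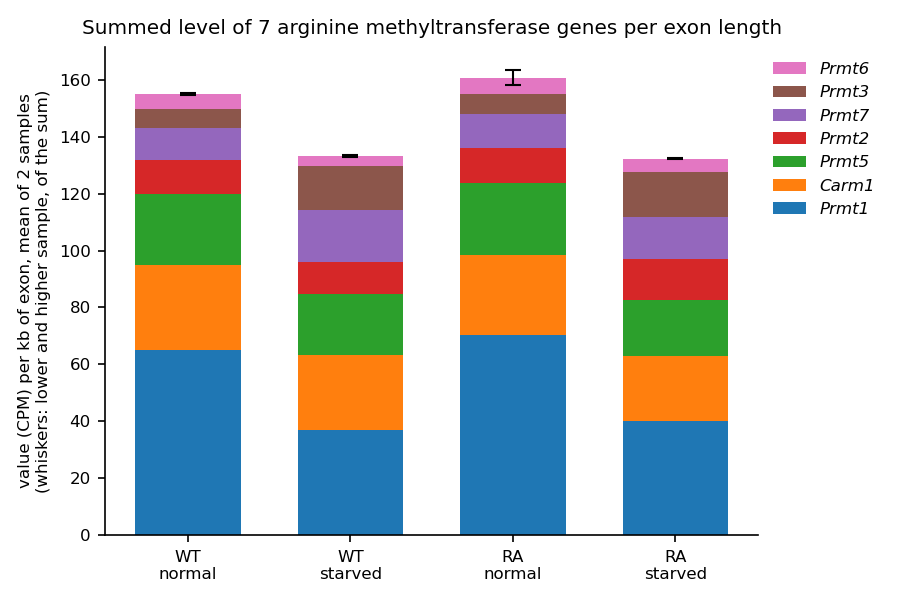
Stacked level of the 7 arginine methyltransferase genes in value (CPM) per kb of exon, mean of 2 samples per group, with whiskers from the lower to the higher sample of the sum. The sum is 133.0 to 133.7 in starved WT against 154.6 to 155.4 in normal WT, and the Prmt1 segment shrinks while those of Prmt3 and Prmt7 grow in both genotypes.

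The third comparison asked whether the genotypes differ in each medium. In normal medium none of the 9 genes was called between RA and WT (0 with limma and with edgeR or DESeq2 on recovered reads), against 9.63% of all genes (6.68% higher and 2.95% lower in RA). Of the 9 genes 3 had an unadjusted limma p under 0.05, a looser threshold than that of the 9.63%, so this count cannot be set against that share. The differences nearest to a call were those of Prmt1, at 0.12 (95% interval 0.03 to 0.20, limma BH-adjusted p = 0.0765), and Skp2, at -0.13 (95% interval -0.23 to -0.03, limma BH-adjusted p = 0.0907). For Carm1 the difference was -0.10 (95% interval -0.18 to -0.01, limma BH-adjusted p = 0.159). The intervals of these genes, which are not adjusted for multiple testing, leave out 0, and so the missing call does not show equal levels. This comparison depended on the scaling of the libraries: 69.4% of the called genes were higher in RA as deposited, 40.5% with total-read scaling and 52.6% with quantile normalization. Under these scalings Carm1 and Skp2 were called lower in RA, with limma BH-adjusted p-values of 0.0384 and 0.0225 for total reads and 0.0413 and 0.0379 for quantiles.

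Under starvation 6 of the 9 genes differed between RA and WT, 3 higher and 3 lower, against 62.9% of all genes (30.8% higher and 32.1% lower). Prmt6, Prmt2 and Prmt1 were higher in starved RA. Their log2 differences were 0.37 for Prmt6 (SE 0.069, limma BH-adjusted p = 1.90e-04), 0.32 for Prmt2 (SE 0.060, limma BH-adjusted p = 1.85e-04) and 0.12 for Prmt1 (SE 0.039, limma BH-adjusted p = 0.0128). On the means Prmt6 was 1.31-fold, Prmt2 1.26-fold and Prmt1 1.09-fold the level of starved WT, with no overlap between the genotypes. The call of Prmt1 was lost without RA starved replicate 1 (limma BH-adjusted p = 0.167) and without WT starved replicate 2 (0.079). C130013H08Rik, which overlaps Prmt6, was at 7.83 to 8.38 in starved RA and 6.87 to 7.59 in starved WT, and Mir678, within Prmt2, at 4.09 to 4.31 and 3.42 to 3.51. The sum of the fibroblast list was higher and that of the proliferation list lower in starved RA, without overlap. Of 9 fibroblast markers tested 8 were higher and 1, Vim, was lower in starved RA. Within the proliferation list 9 genes were higher and 7 lower in starved RA, with a median log2 difference of 0.10. Top2a, a topoisomerase of dividing cells, had means of 86.1 in starved RA and 44.2 in starved WT, and Pcna, the sliding clamp of replication, 151 and 225. The part of these genes and lists in the differences was not tested.

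Jmjd6, Prmt7 and Carm1 were lower in starved RA. Jmjd6 had the largest difference of the 9 by size, at -0.46 (SE 0.051, limma BH-adjusted p = 7.10e-07), a change of -27.6% from starved WT. The difference was -0.30 for Prmt7 (SE 0.040, limma BH-adjusted p = 7.70e-06) and -0.21 for Carm1 (SE 0.041, limma BH-adjusted p = 2.57e-04). The genotypes did not overlap for any of these genes. Yipf2, which overlaps Carm1, was at 45.5 to 46.9 in starved RA and 51.1 to 51.2 in starved WT, and Mettl23, which overlaps Jmjd6, was at 170.3 to 175 in starved RA and 199 to 201 in starved WT. Both were thus lower in starved RA as well, and their part in these differences was not tested. Skp2, Prmt5 and Prmt3 were not called, at -0.09 (95% interval -0.19 to 0.01), -0.11 (-0.24 to 0.02) and 0.02 (-0.08 to 0.11). For Prmt5 this rested on single samples: it was -0.20 and called without RA starved replicate 2 (limma BH-adjusted p = 0.0234), -0.02 without RA starved replicate 1 and -0.06 without WT starved replicate 2. Skp2 was called with median-ratio scaling (limma BH-adjusted p = 0.0451).

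**Figure D3:**
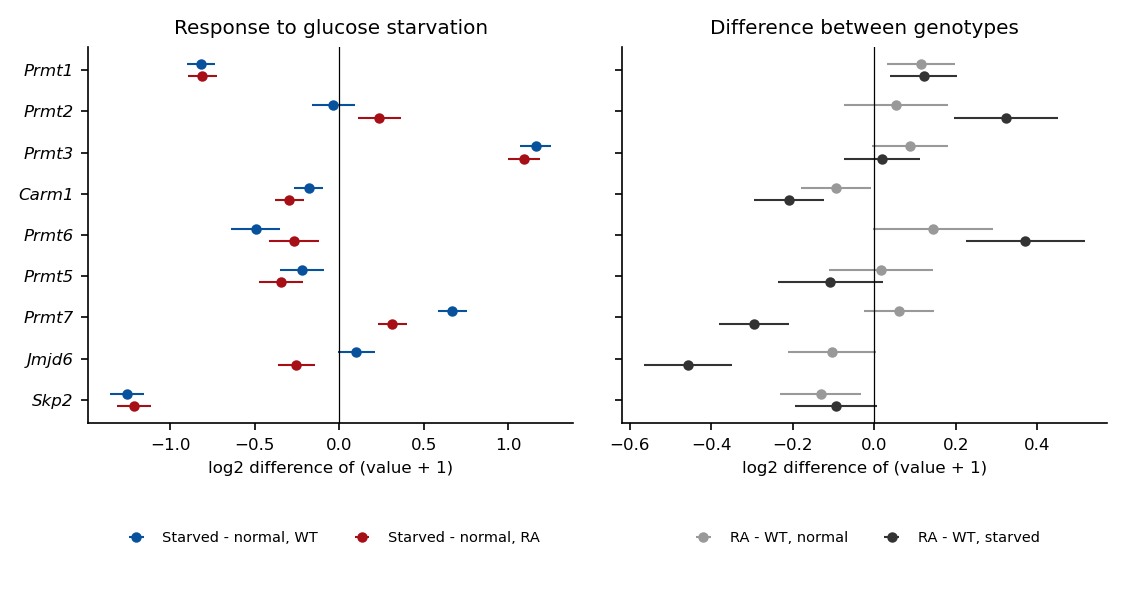
Log2 difference of (value + 1) for each of the 9 genes, with 95% intervals of the limma fit that are not adjusted for multiple testing. The left panel gives starved minus normal in WT and RA, and the right panel RA minus WT in each medium. Skp2, Prmt1 and Prmt3 respond by nearly equal amounts in both genotypes, while Prmt7 and Jmjd6 lie apart.

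Whether the starvation response itself depended on the genotype was tested as the interaction, defined as the RA response minus the WT response. It was called for 3 of the 9 genes, 1 higher and 2 lower in RA, against 50.6% of all genes (24.5% higher and 26.1% lower). Prmt7 rose less in RA, and the interaction was -0.36 (SE 0.057, limma BH-adjusted p = 7.17e-05). For Jmjd6 it was -0.35 (SE 0.072, limma BH-adjusted p = 6.45e-04), with a positive difference in WT that was not called and a decrease in RA. For Prmt2 it was 0.27 (SE 0.085, limma BH-adjusted p = 0.0144), with a rise in RA and no call in WT. The call of Prmt2 was lost without WT starved replicate 1 (limma BH-adjusted p = 0.0748) and without RA normal replicate 1 (0.0682), and was also lost without the low-value filter or the variance trend.

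For the 3 genes with the strongest responses the interaction was small. It was 0.01 for Prmt1 (95% interval -0.11 to 0.12, limma BH-adjusted p = 0.934), 0.04 for Skp2 (-0.10 to 0.18, 0.66) and -0.07 for Prmt3 (-0.20 to 0.06, 0.386). These intervals lie well inside the responses themselves, all of which exceeded 0.8 in size. For Carm1 it was -0.12 (-0.24 to 0.01, limma BH-adjusted p = 0.106), for Prmt5 -0.12 (-0.31 to 0.06, 0.243) and for Prmt6 0.23 (0.02 to 0.43, 0.0647). Without RA normal replicate 1 both Prmt5 (-0.21, limma BH-adjusted p = 0.0386) and Prmt6 (0.28, 0.0381) were called. The interaction of Prmt5 was -0.04 without RA normal replicate 2, -0.04 without RA starved replicate 1, -0.08 without WT starved replicate 2 and -0.21 without RA starved replicate 2. That of Prmt6 was also called with edgeR on recovered reads (BH-adjusted p = 0.0346) and with total-read scaling (limma, 0.0233).

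The pathways around these genes were read from the same fits, and the counts of their lists stand against the 78.6% (WT) and 68.7% (RA) of all genes that starvation moved. The remaining members of the enzyme family come first. Prmt8, a neuronal type I enzyme, was at 0 in 7 samples and had 2 reads in RA in normal medium replicate 2, so it was not tested. Prmt9, a type II enzyme of splicing, stood at a mean of 20.6 and 18.6 in normal and starved WT and at 21.5 and 26.9 in RA. It differed between starved RA and WT by 0.51 (limma BH-adjusted p = 3.70e-06) and its interaction was 0.46 (limma BH-adjusted p = 6.18e-04).

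Among 6 partners of the methyltransferases 3 rose and 1 fell in WT, and 3 rose and 1 fell in RA. Their median log2 difference was 0.09 in WT and 0.17 in RA. Coprs, which tethers Prmt5 to histones, rose from 14.7 to 58.1 (WT) and from 16.7 to 33.8 (RA), and its interaction was -0.94 (SE 0.092, limma BH-adjusted p = 3.15e-07). Wdr77, the obligate partner of Prmt5, rose from 157 to 175 (WT), with means of 163 and 160 for RA. Clns1a, which brings splicing proteins to Prmt5, fell in both genotypes (log2 differences of -0.33 for WT and -0.35 for RA). Btg1, an activator of Prmt1, had means of 63.6 and 64.0 for WT and rose from 65.1 to 87.8 in RA. The interaction was called for Coprs, Wdr77 and Btg1, 3 of the 6, against 50.6% of all genes.

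The methyl donor is made and its by-product removed by the S-adenosylmethionine cycle, of which 11 genes were tested. In WT 4 rose and 6 fell, and in RA 5 rose and 6 fell. The median log2 difference was -0.11 in WT and -0.20 in RA. Mtr and Mtrr, which carry out and maintain the regeneration of methionine, rose by 0.59 and 0.63 (WT) and by 0.84 and 0.19 (RA). Mat2a, the S-adenosylmethionine synthetase of most tissues, went from 240.1 to 153 (WT) and from 225 to 186 (RA), falling in both. Ahcy, which hydrolyses the inhibitory by-product S-adenosylhomocysteine, stood at 261 and 275 in WT without a call and fell from 280.3 to 243 in RA. Mtap, which salvages methylthioadenosine, fell in both genotypes (log2 differences of -1.33 for WT and -1.16 for RA). Other genes of the list, not named here, moved by more in size than Mtr, Mtrr, Mat2a and Ahcy in each genotype. The interaction was called for 9 of the 11 genes, 4 higher and 5 lower in RA, against 50.6% of all genes (24.5% higher and 26.1% lower).

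Of 8 genes for reading or removing methylarginine 6 were tested. In WT 3 rose and 2 fell, and in RA 1 rose and 2 fell. The median log2 difference was 0.13 in WT and -0.02 in RA. Snd1, a Tudor protein that binds symmetric dimethylarginine, rose from 187 to 309 (WT) and from 189 to 224 (RA), with an interaction of -0.47. Ddah2, which breaks down free asymmetric dimethylarginine, fell in both genotypes (log2 differences of -1.01 for WT and -1.13 for RA). Smn1, a Tudor protein of snRNP assembly, rose by 0.24 in WT and its difference in RA was -0.10 and not called. The arginine deiminases Padi2 and Padi4 had means of at most 0.205 and were not tested. Of the 6 tested genes 2 had a called interaction, 0 higher and 2 lower in RA, against 50.6% of all genes.

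Of 10 coactivators and substrates of Carm1, 5 rose and 2 fell in WT, and 6 rose and 2 fell in RA. For this list the median log2 difference was 0.19 in WT and 0.28 in RA. The p160 coactivators that recruit Carm1 differed, with Ncoa1 rising by 1.11 in WT and 0.81 in RA, Ncoa3 by 0.69 and 0.53, and Ncoa2 lower by 0.19 in WT (log2 difference -0.19). Tfeb, the transcription factor of lysosomal genes for which Carm1 is a coactivator, was low and fell, from 7.36 to 1.60 (WT) and from 5.95 to 1.69 (RA). Smarcc1, a methylated subunit of BAF remodelling complexes, stood at 159 and 161 in WT and fell from 158 to 116 in RA, with an interaction of -0.46. An interaction was called for 2 of these 10 genes, 1 higher and 1 lower in RA, against 50.6% of all genes.

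Skp2 acts in a complex, and 11 genes of the SCF machinery were tested. In WT 2 rose and 7 fell, and in RA 1 rose and 7 fell. Over the list the median log2 difference was -0.31 in WT and -0.33 in RA. Cks1b, the cofactor with which Skp2 binds p27, fell in both genotypes (log2 differences of -0.79 for WT and -1.06 for RA). Skp1 and Rbx1, core subunits, fell by 0.37 and 0.35 in WT (log2 differences -0.37 and -0.35). The scaffold Cul1 differed by 0.05 in WT and 0.00 in RA, neither of which was called. The F-box gene Btrc rose in WT (0.17) and in RA (0.19), and Fbxw7 was not called. Interactions were called for 3 of the 11 genes, 0 higher and 3 lower in RA, against 50.6% of all genes.

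Of 7 substrates of Skp2, whose proteins it marks for degradation, 2 rose and 5 fell at the RNA level in WT, and 1 rose and 2 fell in RA. Across them the median log2 difference was -0.30 in WT and -0.03 in RA. Cdkn1a, encoding p21, rose from 10.1 to 20.7 (WT) and from 9.59 to 28.8 (RA). Cdkn1b, encoding p27, fell from 41.3 to 23.4 (WT) and from 38.2 to 33.4 (RA). Cdkn1c, encoding p57, fell from 15.3 to 6.67 (WT), with means of 14.4 and 16.1 for RA without a call, the largest interaction of the list (1.23, limma BH-adjusted p = 2.58e-07). The interaction was called for 6 of the 7, 5 higher and 1 lower in RA, against the same 50.6% of all genes.

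Of 5 genes known to act upstream of Skp2, 3 rose and 1 fell in WT, and 1 rose and 1 fell in RA. The median log2 difference was 0.32 in WT and 0.05 in RA. Foxo3, a transcription factor under control of AMPK that represses Skp2 in starved cells, rose from 17.2 to 36.4 (WT) and from 17.4 to 20.9 (RA), with an interaction of -0.78 (limma BH-adjusted p = 1.62e-05). E2f1, an activator of cell cycle genes, rose from 55.9 to 80.1 in WT and its difference of 0.09 in RA was not called. Prkaa1, a catalytic subunit of AMPK, fell in both genotypes (log2 differences of -0.49 for WT and -0.13 for RA), and Prkaa2 had means of at most 1.09. By its interval the response of Skp2 in RA was within 0.18 of that in WT. An interaction was called for 4 of the 5 upstream genes, 1 higher and 3 lower in RA, against 50.6% of all genes. These were Foxo3, E2f1, Prkaa1 and the transcription factor Sp1 (-0.40). Their part in the Skp2 values was not tested.

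**Figure D4:**
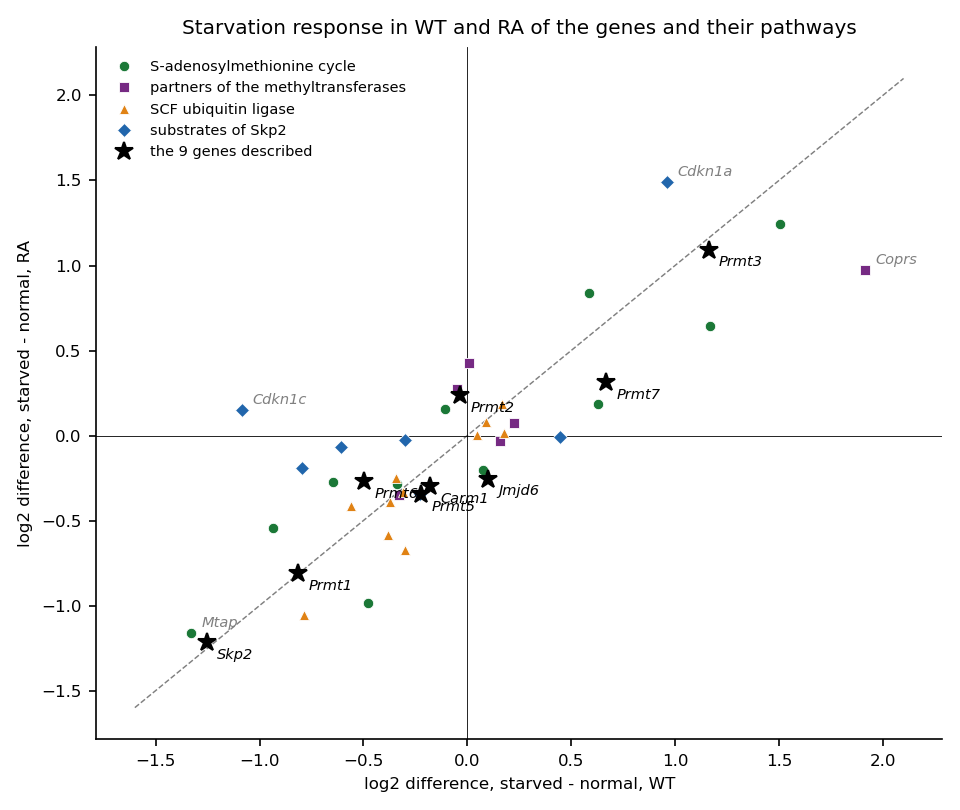
Log2 difference of starved minus normal in WT (horizontal) against RA (vertical) for the 9 genes (stars) and for the tested genes of 4 related lists, with a dashed line of equal response. Skp2, Prmt1 and Prmt3 lie near the line, Coprs lies below it at 1.91 and 0.98, and Cdkn1c lies above it at -1.08 and 0.15.

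The genes most like Carm1 and Skp2 over the 8 samples were found by Pearson's r of log2(value + 1) among 10497 genes with a mean of at least 10. For Skp2 they were Ikbip (r = 0.9992), Galnt7 (0.999) and Wdr82 (0.9984). Ikbip had means of 60.6 and 25.5 in normal and starved WT and 54.7 and 24.2 in RA. For Carm1 they were Grk6 (0.9865), Il6ra (0.9858) and Pole (0.9857), and Grk6 had means of 111 and 91.5 in WT and 104 and 76.3 in RA. The 8 points share 4 groups and most genes were called between the media, so these values are a description only.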

How the data were processed

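PolyA RNA libraries were made with a TruSeq kit and sequenced as paired-end reads on a HiSeq 4000. Per the labels the reads were mapped to mm9, and the submitters' processing notes name TopHat2 (version 2.0.9), bedtools and edgeR. Counter, annotation, strand handling and filters are not given in the sources used here. The authors deposited a signal per gene, the CPM of a scaled library size, in 1 table for all 8 samples. The planned unit was CPM; the columns are CPM of a scaled size, and the same test was used. Columns marked minus and plus were taken to mean normal medium and glucose starvation after the study's scheme, since the headers do not spell it out. All nonzero values were whole reads within 0.01, and the recovered reads summed to 43205841 to 56363034 per sample. PCR copies were not marked, so totals describe counting error alone.

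A gene was kept if 2 or more samples reached a value of 1 (16232 genes). Values were transformed as log2(value + 1) and fitted with limma (version 3.58.1, R version 4.3.3) as 4 group means over all 8 samples, with a variance trend, 2-sided tests and BH adjustment over all genes in each of 5 contrasts. The alternatives were pseudocounts, filters, scalings, a fit of only the groups compared, a replicate block, no trend, a stricter threshold, leaving out each sample, and tests of the recovered reads by DESeq2 (version 1.42.0) and edgeR (version 4.0.16). Between 78.2% and 80.5% of counts from 1 to 9 were even, so edgeR on halved reads was added after seeing the data. The fits were tested on simulated data. Exon lengths and overlaps came from GENCODE on GRCm38 and promoters from RefSeq (GRCm38.p6), neither of which is the build of the reads; no mm9 coordinate was used. Named genes were the 9 genes, the members of the lists given, and the 3 genes with the highest Pearson's r to Carm1 and to Skp2; the genes, lists and tests were chosen with earlier results of these data known. The values of 1 gene of the S-adenosylmethionine list are not reported here.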

Additional observations from a re-analysis of the deposited data

Results flagged for a closer look

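A different starvation response in RA and WT was called for 3 of the 9 genes by the interaction term of limma, with BH adjustment over 16232 genes. The interaction, RA less WT, was 0.27 for Prmt2, -0.36 for Prmt7 and -0.35 for Jmjd6, and interactions were called for 50.6% of all genes tested. Prmt7 was higher in 2 of 2 starved samples of either genotype than in normal medium, by less in RA. Jmjd6 was lower in both starved RA samples than in both RA samples in normal medium. It was higher in both starved WT samples than in both others of WT, a difference that was not called. The interaction of Prmt2 was 0.205 without WT starved replicate 1 and 0.191 without RA normal replicate 1.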

How the results depend on the processing

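Alternatives were tried for the number of genes called among the 9 in each of 5 contrasts and for each gene's difference. For RA against WT in normal medium the number went from 0 to 2 with total-read scaling and to 2 with quantile normalization (Carm1 and Skp2 in both), to 1 with edgeR on halved reads (Skp2) and to 1 with the replicate block (Prmt1, limma BH-adjusted p = 0.0494). At an adjusted p under 1e-05 the number was 2 in place of 6 for RA against WT under starvation. It was 5 in place of 9 for starvation in RA and 0 in place of 3 for the interaction. Of 16232 genes, 3596, 4961 and 1764 passed this threshold in these contrasts, against 10211, 11157 and 8207 at the main threshold. For starvation in WT the calls of Carm1 (limma BH-adjusted p = 6.62e-04) and Prmt5 (limma BH-adjusted p = 0.00319) were also lost at 1e-05. Leaving out 1 sample at a time gave 0 to 0 calls for RA against WT in normal medium, 5 to 7 under starvation, 7 to 8 for starvation in WT, 9 to 9 for starvation in RA and 2 to 4 for the interaction; where 1 sample of a group remained, its spread was taken from the other groups. Of 711 comparisons of a single gene's difference, in which leaving out samples enters by its lowest and highest value, 679 kept their side of the threshold, 18 lost a call, 14 gained one and 0 called differences reversed. Of the 18 lost, all but 5 were lost to the stricter threshold, and 11 differences called under neither setting changed sign. Replicate numbers are shared by the groups, and the deviations of same-numbered samples correlated by -0.008 to 0.157 (mean 0.066), so the numbers were not taken as pairs. With the replicate block Prmt5 was also called between the genotypes under starvation (limma BH-adjusted p = 0.0399), and the numbers of calls there, in both starvation responses and in the interaction were 7, 7, 9 and 3. With 2 samples a group the smallest called difference of these genes was 0.12 on the log2 scale.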
